A study of Mus musculus with 12 samples.

Results

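The 4 TCF/LEF transcription factors and the 4 long Groucho corepressors of the mouse were followed through 12 bulk RNA-seq libraries of embryonic ventricle. The members were the rows of the gene count table named Lef1, Tcf7, Tcf7l1, Tcf7l2, Tle1, Tle2, Tle3 and Tle4, 1 row each, 8 of the 40800 gene IDs in the table. Hearts were taken at embryonic day 12.5, and total RNA came from whole ventricles. Of the libraries, 6 came from Wnt gain-of-function embryos, in which signalling through the Wnt pathway is raised, and 6 from control embryos. The sources used here do not name the allele, any Cre driver or the strain, and do not say how many embryos went into a library. All 8 members passed the filter on low counts, with 29 to 3708 reads per member and library.

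TCF/LEF proteins carry an HMG box that binds DNA at the enhancers of Wnt target genes. Without nuclear beta-catenin they recruit Groucho proteins, which are called TLE in mammals and which repress transcription together with histone deacetylases. When Wnt signalling stabilises beta-catenin, it takes the place of the corepressor on the TCF/LEF protein and brings coactivators, so the same bound site can switch from repression to activation. Lef1 and Tcf7 are known both as effectors and as targets of the pathway, while Tcf7l1 is known mainly as a repressor and Tcf7l2 is used in both ways.

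Lef1 (ENSMUSG00000027985) lies on the plus strand of chromosome 3 (chr3:131110471-131224356 in GRCm38), Tcf7 (ENSMUSG00000000782) on the minus strand of chromosome 11 (chr11:52252371-52283014), Tcf7l1 (ENSMUSG00000055799) on the minus strand of chromosome 6 (chr6:72626378-72789254) and Tcf7l2 (ENSMUSG00000024985) on the plus strand of chromosome 19 (chr19:55741820-55933654). Tle1 (ENSMUSG00000008305) lies on the minus strand of chromosome 4 (chr4:72117142-72200919), Tle2 (ENSMUSG00000034771) on the plus strand of chromosome 10 (chr10:81574561-81590845), Tle3 (ENSMUSG00000032280) on the plus strand of chromosome 9 (chr9:61372366-61418497) and Tle4 (ENSMUSG00000024642) on the minus strand of chromosome 19 (chr19:14448150-14598051). These positions come from GENCODE release M21, matched by gene ID, since the sources used here do not name the build behind the counts.

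Lef1 and Tcf7l2 are shown by sequence because Lef1 had the largest difference between the groups and Tcf7l2 the highest level, and because RefSeq places a further transcription start deep inside each gene. Forms of LEF1 made from an internal promoter and lacking the beta-catenin-binding end are known from human cells, and gene-level counts add all forms together. The lines give the 250 bases before a RefSeq start, 5′ to 3′ on the strand of the gene (RefSeq, GRCm38.p6). Capitals mark the 5-base core of the TCF/LEF motif, CTTTG, or its reverse complement CAAAG.
Lef1, before the outer start, chr3:131110047-131110296, plus strand: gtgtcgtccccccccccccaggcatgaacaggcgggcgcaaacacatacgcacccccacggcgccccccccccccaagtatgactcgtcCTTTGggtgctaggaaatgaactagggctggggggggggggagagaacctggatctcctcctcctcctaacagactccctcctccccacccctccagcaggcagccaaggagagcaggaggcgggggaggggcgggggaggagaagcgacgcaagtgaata
Lef1, before a start inside the gene, chr3:131156044-131156293, plus strand: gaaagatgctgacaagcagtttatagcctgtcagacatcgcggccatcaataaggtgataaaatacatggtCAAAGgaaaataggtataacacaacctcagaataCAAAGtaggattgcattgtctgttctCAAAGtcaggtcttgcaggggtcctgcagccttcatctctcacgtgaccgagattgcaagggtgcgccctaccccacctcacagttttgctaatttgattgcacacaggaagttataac
Tcf7l2, before the outer start, chr19:55741560-55741809, plus strand: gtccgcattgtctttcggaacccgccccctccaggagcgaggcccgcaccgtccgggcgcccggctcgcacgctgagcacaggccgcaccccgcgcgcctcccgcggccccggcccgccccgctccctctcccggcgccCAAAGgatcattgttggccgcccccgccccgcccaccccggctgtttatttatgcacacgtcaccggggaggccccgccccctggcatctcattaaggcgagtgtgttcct
Tcf7l2, before a start inside the gene, chr19:55895071-55895320, plus strand: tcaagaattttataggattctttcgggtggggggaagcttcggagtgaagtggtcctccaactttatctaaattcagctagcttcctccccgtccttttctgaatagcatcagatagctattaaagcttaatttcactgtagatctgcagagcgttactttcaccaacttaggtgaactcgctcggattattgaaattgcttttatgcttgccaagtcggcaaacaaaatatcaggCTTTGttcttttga
None of these 4 stretches overlaps an exon of its own gene in GENCODE M21. The outer Lef1 stretch held 1 core and the inner one 3, and each Tcf7l2 stretch held 1. All 8 members matched RefSeq by symbol, with 14 such windows in all, and 7 of them held the core on either strand, 50% against 42.2% of the 13264 windows of tested genes and 48.6% of all 32851 windows of the same length. Of these 7 windows 4 belong to Lef1, and 2 of those 4 overlap each other. The longer motifs CTTTGAA and CTTTGAT, searched on both strands, occurred in 0 of the 14 windows of the members, in 5.32% of the windows of tested genes and in 7.48% of all windows. Each longer motif contains the core. A match is only a run of letters, and a missing one says only that the letters are not in that window.

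The library labelled Wnt gain-of-function replicate 5 stood apart from its group. Its summed level of the 15 listed TCF/LEF target genes was 347.2 CPM, inside the range of 303.6 to 376.9 CPM in control libraries, while the other 5 libraries of its group lay from 469.8 to 498.9 CPM. It also had the highest summed erythroid markers of all libraries, at 83020 CPM. It was kept under its label, and leaving it out was tried with its low values already known. CPM are counts scaled to library size after TMM normalisation of the libraries.

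Lef1 and Tcf7 were the members with the largest difference, about 2.6-fold and 1.8-fold higher on average in Wnt gain-of-function ventricles, but neither passed the test over all genes. In Wnt gain-of-function libraries Lef1 had a lowest value of 30.4, a median of 65.6 and a highest of 95.3 CPM, against 9.30, 26.6 and 40.6 CPM in control libraries. The Lef1 ranges overlapped only through Wnt gain-of-function replicate 5, since the other 5 libraries of that group were above every control library. Among these 5, replicates 1 and 2, and 3 and 4, were so alike that each pair may not be independent. The Lef1 mean was 64.2 ± 25.9 CPM in Wnt gain-of-function and 24.7 ± 12.9 CPM in control libraries (SD, n = 6 each). The fitted log2 fold change was 1.38 ± 0.412 (SE), a fold of 2.61, with an approximate 95% interval from 0.46 to 2.30 and an adjusted p of 0.335 in edgeR's quasi-likelihood test. In bulk tissue, more cells of a type and more RNA per cell cannot be told apart.

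Tcf7 had a lowest value of 5.10, a median of 10.5 and a highest of 12.2 CPM in Wnt gain-of-function libraries, against 2.87, 5.90 and 6.89 CPM in control libraries. Again 5 of 6 Wnt gain-of-function libraries lay above every control library, and replicate 5 lay inside the control range. The Tcf7 mean was 9.92 ± 2.50 CPM in Wnt gain-of-function and 5.42 ± 1.49 CPM in control libraries (SD, n = 6 each). The Tcf7 log2 fold change was 0.87 ± 0.217 (SE), a fold of 1.82, with an interval from 0.38 to 1.35 (edgeR adjusted p = 0.137). Tcf7 ranked 118 and Lef1 276 by p among the 14774 genes tested.

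In DESeq2 with all 12 libraries Tcf7 passed (adjusted p = 0.0134) and Lef1 did not (adjusted p = 0.0871). Without Wnt gain-of-function replicate 5 the log2 fold change was 1.53 for Lef1 (edgeR adjusted p = 0.138) and 1.00 for Tcf7 (edgeR adjusted p = 0.00789). That library had the lowest Lef1 and Tcf7 of its group, so leaving it out raises both values by construction and is no independent test. In the authors' deposited table, the log2 fold change of Lef1 was 1.5 (adjusted p = 0.166) and that of Tcf7 was 0.854 (adjusted p = 0.27). It held 27743 gene IDs, of which 36 had an adjusted p under 0.05, against 74 of the 14774 genes tested here, so the adjusted p-values are not on the same footing.

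**Figure D1:**
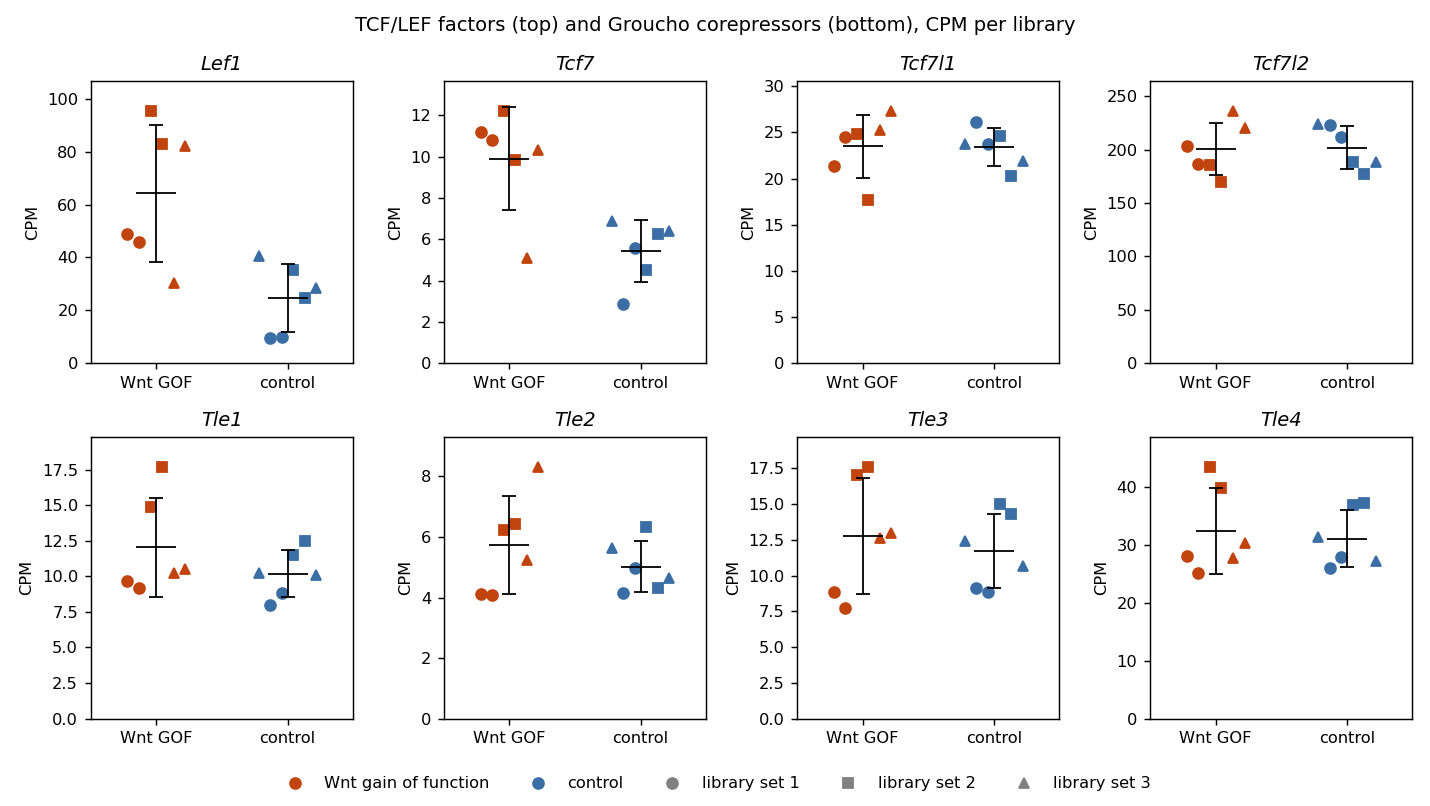
CPM of each member in the 6 Wnt gain-of-function libraries (left in each panel) and the 6 control libraries (right), with the mean and SD as a black cross and whiskers and marker shapes for 3 library sets that cut across the groups. Lef1 and Tcf7 are higher in 5 of 6 Wnt gain-of-function libraries than in every control library, whereas the groups of the other 6 members lie over each other.

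Tcf7l2 was the most abundant factor of the family and showed no difference between the groups. It had a lowest value of 169.6, a median of 195 and a highest of 235.9 CPM in Wnt gain-of-function libraries, against 176.8, 200 and 224.1 CPM in control libraries. Both groups covered nearly the same range. The means were 200.3 ± 24.4 CPM in Wnt gain-of-function and 201.9 ± 20.4 CPM in control libraries (SD, n = 6 each). The log2 fold change was -0.01 (edgeR adjusted p = 0.999), with an approximate 95% interval from -0.21 to 0.19, so that a larger change of the mean than this was outside the interval.

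Tcf7l1, the member known as a repressor in embryonic stem cells, lay from 17.7 to 27.3 CPM with a median of 24.6 in Wnt gain-of-function libraries, against 20.3 to 26.1 CPM with a median of 23.7 in control libraries. The Wnt gain-of-function range enclosed that of the controls. Its log2 fold change was 0.01 (edgeR adjusted p = 0.999), with an interval from -0.23 to 0.24. The sign of this value, like that of Tcf7l2, changed among the alternative analyses and carries no direction.

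The share of each factor in the family's reads is given as a description, with no test. Lef1 gave 21.4% ± 7.85 of the reads of the 4 factors in Wnt gain-of-function and 9.6% ± 4.72 in control libraries (SD, n = 6 each). Tcf7l2 gave 67.4% ± 7.76 of them in Wnt gain-of-function and 79.1% ± 4.62 in control libraries. Tcf7 gave 3.35% ± 0.875 and Tcf7l1 7.88% ± 0.959 in Wnt gain-of-function libraries, against 2.13% ± 0.605 and 9.19% ± 0.723 in control libraries. The Lef1 shares overlapped, at 10.2% to 29.9% in Wnt gain-of-function and 3.57% to 13.9% in control libraries, and without Wnt gain-of-function replicate 5 the mean Lef1 share of that group was 23.6%. Set against Tcf7l2 within a library, which needs no scaling between libraries, Lef1 had 12.9 to 51.2 reads per 100 Tcf7l2 reads in Wnt gain-of-function libraries, against 4.18 to 18.7 in control libraries. The lowest of these Wnt gain-of-function values was that of replicate 5, and the next was 24.2. The shares follow read counts, which also depend on transcript length, so they do not rank genes. They are parts of a whole, so a higher share of Lef1 lowers the room for the others. Tcf7l2 and Tcf7l1 had lower mean shares in Wnt gain-of-function libraries, but log2 fold changes of -0.01 and 0.01.

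The 4 long Groucho genes did not pass the test in either direction. Tle1 lay from 9.18 to 17.7 CPM with a median of 10.3 in Wnt gain-of-function libraries, against 8.02 to 12.5 CPM with a median of 10.2 in control libraries. Tle4 lay from 25.2 to 43.5 CPM with a median of 29.2 in Wnt gain-of-function libraries, against 26.1 to 37.2 CPM with a median of 29.6 in control libraries. In both genes the group medians were nearly equal, and the spread was wider in the Wnt gain-of-function group, with a coefficient of variation of 28.9% against 16.1% for Tle1 and of 22.8% against 15.8% for Tle4.

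Tle2 lay from 4.09 to 8.32 CPM with a median of 5.74 in Wnt gain-of-function libraries, against 4.16 to 6.34 CPM with a median of 4.81 in control libraries. Tle3 lay from 7.72 to 17.6 CPM with a median of 12.8 in Wnt gain-of-function libraries, against 8.83 to 15 CPM with a median of 11.6 in control libraries. The log2 fold changes were 0.24 for Tle1, 0.19 for Tle2, 0.13 for Tle3 and 0.06 for Tle4 (edgeR adjusted p = 0.999 for each). Their approximate 95% intervals ran from -0.14 to 0.62, from -0.23 to 0.61, from -0.33 to 0.59 and from -0.25 to 0.38. All 4 proteins have an N-terminal Q domain, through which they form tetramers and bind TCF/LEF proteins, and a WD40-repeat end that binds other repressors. The intervals still allow a rise of the Tle1 mean by 0.62 on the log2 scale.

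Over all 8 members, 0 passed edgeR's test at an adjusted p under 0.05, where 0.501% of all tested genes passed, 0.433% as higher and 0.0677% as lower. At an unadjusted p under 0.05 there were 2, Lef1 and Tcf7, where 6.3% of all tested genes were past that point. In 0 members were the groups free of overlap, against 0.46% of tested genes (0.298% with the Wnt gain-of-function group higher). The median log2 fold change of the members was 0.16, beside a median of 0.00131 over all tested genes. Of the members 7 of 8 lay above 0, beside 7450 of the 14774 tested genes. These 7 include Tcf7l1, at 0.01, and Tle4, at 0.06, whose signs changed among the alternative analyses. Nothing in the labels says that the libraries are separate embryos, so all p-values speak only of the scatter among libraries, which may be technical.

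**Figure D2:**
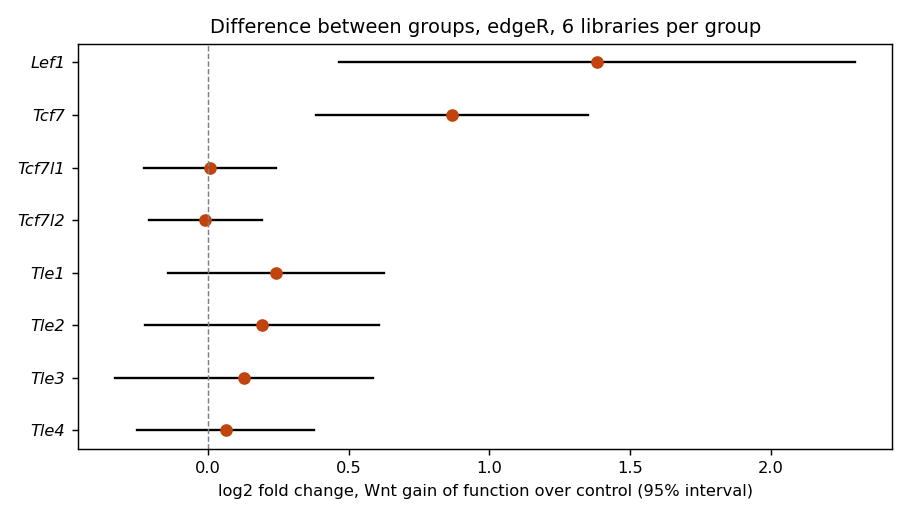
Log2 fold change of each member, Wnt gain of function over control, with an approximate 95% interval from edgeR's standard error and 10 residual degrees of freedom (x axis; genes on the y axis). The intervals of Lef1 and Tcf7 lie above 0 before correction for multiple tests, and those of the other 6 members include 0.

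Per length of transcript, Tcf7l2 stood well above the rest of the family and Lef1 held a different place in each group. CPM per kilobase of all exons of the gene in GENCODE M21 were 22.8 ± 2.78 for Tcf7l2 in Wnt gain-of-function and 23 ± 2.32 in control libraries. Lef1 was next below it in Wnt gain-of-function libraries with 7.31 ± 2.95, and stood under Tcf7l1 and Tle4 in control libraries with 2.81 ± 1.47. Tcf7l1 had 5.99 ± 0.872 in Wnt gain-of-function and 5.96 ± 0.523 in control libraries, and Tle4, the highest of the Groucho genes, had 5.69 ± 1.3 and 5.46 ± 0.86. Within each group Tcf7l1 and Tle4 lay within 1 SD of each other. Lef1 lay within 1 SD of both in the Wnt gain-of-function group, and of Tcf7 among controls, only by its own larger SD. Tcf7 followed with 3.78 ± 0.951 in Wnt gain-of-function and 2.06 ± 0.569 in control libraries. Tle1 (1.38 ± 0.399 and 1.17 ± 0.188), Tle3 (1.1 ± 0.348 and 1.01 ± 0.223) and Tle2 (0.922 ± 0.259 and 0.806 ± 0.135), each with Wnt gain of function before control, were the lowest. Neighbours among these 3 differed by less than the larger SD of each pair. Without Wnt gain-of-function replicate 5, Lef1 was at 8.08 ± 2.53 and Tcf7 at 4.14 ± 0.342 in that group (SD, n = 5), and the order of the 8 members was the same. With the longest transcript as the length, Tcf7 and Tle1 changed places among controls and no other place changed.

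The members also varied along a division of the libraries that cut across the groups. Clustering of the libraries by their deviations from the group means over all tested genes, done after the data were seen, gave 3 sets of 2 Wnt gain-of-function and 2 control libraries each. Set 1 held Wnt gain-of-function replicates 1 and 2 and control replicates 2 and 3, set 2 held Wnt gain-of-function 3 and 4 and control 4 and 5, and set 3 held Wnt gain-of-function 5 and 6 and control 1 and 6. No label says what the sets are. Because all genes entered the clustering, values by set are a description.

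Tle3 and Tle4 followed the sets far more than the groups. Tle3 averaged 8.62 CPM over the 4 libraries of set 1, 16 CPM in set 2 and 12.2 CPM in set 3, and Tle4 averaged 26.8, 39.3 and 29.2 CPM. Every library of set 2, of either group, was above every other library for both genes. The sets took 91.8% of the variance of Tle3 in log2 CPM and the groups 1.43%, and for Tle4 the shares were 89.1% and 0.87%. Tle1 was split 76.1% to 11.4%, Tle2 40.7% to 7.02% and Tcf7l2 58.1% to 0.211%. Lef1 showed the opposite order, with 51% of its variance between groups and 26.9% between sets, and Tcf7 had 52% and 1.89%.

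Summed markers of erythroid cells were lowest in set 1, at 6245 to 9484 CPM. They were 32410 to 66510 CPM in set 2, a range inside the 12560 to 83020 CPM of set 3. Summed epicardial markers were 197.5 to 218.1 CPM in set 1 and 246 to 294.5 CPM in the other 8 libraries. The part of both in the Tle values was not tested. Across the 12 libraries Tle1, Tle3 and Tle4 had correlations of 0.873 to 0.903 with each other in log2 CPM, while Tcf7l2 had -0.67 with Tle1 and 0.696 with Tcf7l1. These correlations describe libraries that share the same sets and are not tests.

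Within each set both Lef1 and Tcf7 were higher on average in the Wnt gain-of-function libraries, to different degrees. Lef1 averaged 47.4 CPM in the 2 Wnt gain-of-function and 9.49 CPM in the 2 control libraries of set 1 (4.99-fold), 89.1 and 30 CPM in set 2 (2.97-fold), and 56.3 and 34.5 CPM in set 3 (1.63-fold). Both pairs of set 1 and the Wnt gain-of-function pair of set 2 were the 3 most alike pairs of libraries. The 2 libraries of such a pair may not be independent. In set 3 the single values were 30.4 and 82.2 CPM in Wnt gain-of-function and 40.6 and 28.3 CPM in control libraries, and overlapped. Tcf7 averaged 11 CPM in Wnt gain-of-function and 4.22 CPM in control libraries of set 1, 11 and 5.38 CPM in set 2, and 7.71 and 6.65 CPM in set 3. With the sets as a block, the log2 fold change was 1.48 for Lef1 (edgeR adjusted p = 0.0663) and 0.86 for Tcf7 (edgeR adjusted p = 0.0788). In that fit 195 genes were higher and 100 lower. The sets were drawn from the scatter of these same libraries, so the block takes out scatter by construction. Its adjusted p-values may therefore be too small and are no independent test. The low Lef1 of the controls of set 1, 9.30 and 9.68 CPM, lay far from the 24.8 to 40.6 CPM of the other 4 control libraries. The same 2 libraries had the highest summed cardiomyocyte markers, 26640 and 27630 CPM against 18110 to 22790 CPM in the other 10 libraries. Their summed mural markers, 367.8 and 396.4 CPM, were also above the 179.9 to 283.4 CPM of the other 10, and the part of these in the Lef1 values was not tested.

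**Figure D3:**
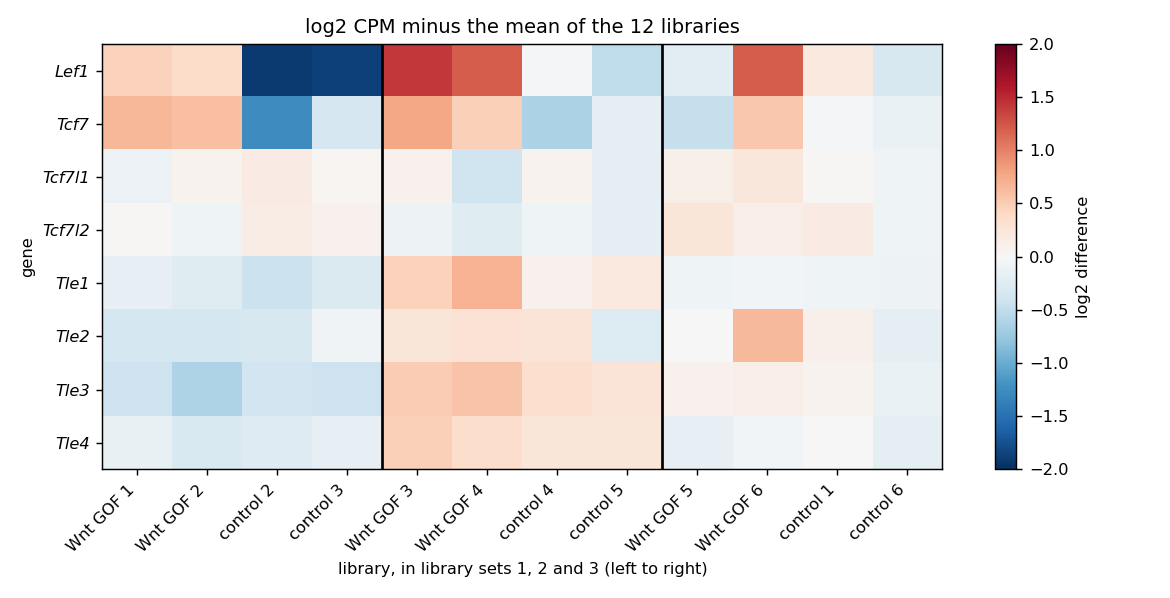
Log2 CPM of each member minus its mean over the 12 libraries (colour, in log2 units), with libraries on the x axis in library sets 1, 2 and 3 and the Wnt gain-of-function libraries first in each set. Tle1, Tle3 and Tle4 are highest in the 4 libraries of set 2 whatever the group, and Lef1 is lowest in control replicates 2 and 3.

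Axin2, a scaffold of the destruction complex of beta-catenin and a standard readout of TCF/LEF activity, was higher in the Wnt gain-of-function group, at 18.3 ± 8.16 CPM against 2.97 ± 1.08 CPM in controls (SD, n = 6 each; log2 fold change 2.62, edgeR adjusted p = 0.0145). Axin2 missed the threshold with limma-voom (adjusted p = 0.0982), with the replicate number as a block (edgeR adjusted p = 0.125) and with each of the 3 pairs of most alike libraries summed to 1 (edgeR adjusted p = 0.22). Replicate 5 of the Wnt gain-of-function group lay among the controls for Axin2. Within a group, 16 relations between Axin2 and a member were computed in log2 CPM, and 0 passed after Benjamini-Hochberg adjustment (smallest adjusted p = 0.178 by Pearson and 0.187 by Spearman, exact permutation tests, two-sided, n = 6).

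In the Wnt gain-of-function group Lef1 had r = 0.838 with Axin2 (exact permutation p = 0.0417, adjusted p = 0.178, n = 6) and rho = 0.886 (exact permutation p = 0.0333, adjusted p = 0.187). Without replicates 2 and 5, the libraries farthest from the median of Axin2, r was 0.335. Leaving out replicate 5 alone gave 0.686 and replicate 2 alone 0.865. Tcf7 had r = 0.94 (exact permutation p = 0.156, adjusted p = 0.243, n = 6) and rho = 0.371 (exact permutation p = 0.497, adjusted p = 0.53), and r was 0.121 without the same 2 libraries. The Tcf7 value rested on replicate 5, since r was 0.112 without it alone and 0.964 without replicate 2 alone. Among controls Lef1 had r = 0.851 with Axin2 (exact permutation p = 0.128, adjusted p = 0.243, n = 6) and rho = 0.429 (exact permutation p = 0.419, adjusted p = 0.479), and r was -0.922 without control replicates 2 and 3, 0.745 without replicate 2 alone and 0.83 without replicate 3 alone. The smallest p among the 16 belonged to Tle1 in controls, with r = 0.937 (exact permutation p = 0.0111, adjusted p = 0.178, n = 6), rho = 0.829 (exact permutation p = 0.0583, adjusted p = 0.187) and r = 0.717 without those 2 libraries. Since the library sets divide each group, the 6 libraries of a group may not be independent.

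**Figure D4:**
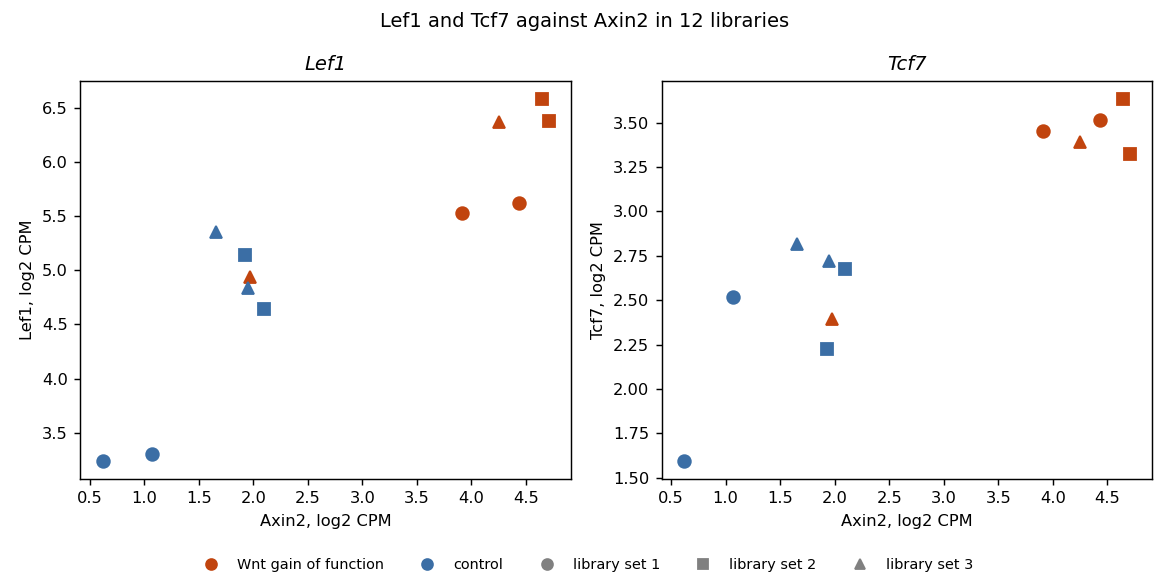
Log2 CPM of Lef1 (left) and Tcf7 (right) on the y axes against log2 CPM of Axin2 on the x axis, with 1 point per library, colour for the group and shape for the library set. Replicate 5 of the Wnt gain-of-function group, with 30.4 CPM of Lef1 and 5.10 CPM of Tcf7, sits among the control libraries in both panels.

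The genes most like each TCF/LEF factor over the 12 libraries differed between the factors. Likeness was Pearson's r of log2 CPM among 12601 candidate genes with an established symbol, a description with no p. Lef1 was matched best by Trps1, a GATA-type repressor (r = 0.971, and 0.942 for deviations from the group means), by Fst, which encodes the activin-binding protein follistatin (0.965 and 0.935), and by Dclk1, a doublecortin-like kinase (0.955 and 0.951). Tcf7 was matched by the transcription factor Runx2 (0.947 and 0.886), the homeobox gene Msx2 (0.937 and 0.871) and the Frizzled receptor gene Fzd10 (0.935 and 0.874). Of these 6 genes only Runx2 passed the edgeR test between the groups (log2 fold change 1.99, adjusted p = 0.0404). It missed the threshold in 13 of 22 alternatives. Likeness was not computed again without Wnt gain-of-function replicate 5, the library on which the r of Tcf7 with Axin2 rested.

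Tcf7l1 was matched less closely, by Nlrx1 (0.888), Daxx (0.873), a histone chaperone, and Sash3 (0.863). For Tcf7l2 the closest were C2cd5 (0.9), the peroxisomal acyltransferase Crot (0.899) and Proser3 (0.889). None of these 6 had an adjusted p under 0.999 between the groups in edgeR.

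Among partners of the family, calls came only from the lists of target genes and of factors that recruit Groucho proteins. The 2 other Groucho genes, Tle6 and Aes (now named Tle5), a short form without the WD40 repeats, had log2 fold changes of 0.10 and 0.01, and 0 of 2 passed. Aes was at 66.8 ± 13.2 CPM in Wnt gain-of-function and 66.2 ± 7.83 CPM in control libraries (SD, n = 6 each). Of 15 genes for beta-catenin and its coactivators 0 passed in either direction and 0 had an unadjusted p under 0.05, with a median log2 fold change of 0.01. Those with the lowest p were Cdc73 of the PAF1 complex at 0.13 and Smarca4, the ATPase of the BAF remodelling complex, at 0.10. Ctnnb1, the gene of beta-catenin, stood at 287.6 ± 26.9 CPM in Wnt gain-of-function and 278.1 ± 15.5 CPM in control libraries (log2 fold change 0.05, edgeR adjusted p = 0.999).

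Of 15 genes listed as other corepressors and inhibitors of TCF/LEF activity, not all of which repress it, edgeR called 0. The unadjusted p was under 0.05 for 1 of them, and the median log2 fold change was 0.02. That 1 was Tnik, a kinase that binds TCF7L2 and is known as an activator of its target genes, not as a repressor, although it stood in this list. It was at 24.4 ± 2 CPM in Wnt gain-of-function and 28.5 ± 3.89 CPM in control libraries (log2 fold change -0.23, edgeR adjusted p = 0.705). Hdac1, a histone deacetylase that Groucho proteins recruit, stood at -0.18 on the log2 scale (edgeR adjusted p = 0.939). Of 13 tested TCF/LEF target genes, 15 having been listed, 3 rose, 0 fell and 9 had an unadjusted p under 0.05. They were Rnf43, which removes Wnt receptors (log2 fold change 2.14, edgeR adjusted p = 0.0095), Notum, which inactivates Wnt ligands (4.84, 0.0095), and Axin2. Rnf43 was at 2.54 ± 1.04 CPM in Wnt gain-of-function and 0.578 ± 0.116 CPM in control libraries (SD). Notum was at 15.1 ± 7.8 CPM and 0.515 ± 0.304 CPM in the same order. The control levels of Rnf43 and Notum were low, so the size of their fold changes is uncertain. Sp5 and Dkk4, also listed, did not pass the filter on low counts and were not tested. The median of this list was 0.56. It was drawn up with earlier results of these libraries known and is no independent evidence of a direction.

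Among 14 listed transcription factors known to recruit Groucho proteins, 8 were tested, 2 rose and 0 fell. Runx1 rose to 5.59 ± 2.77 CPM in Wnt gain-of-function libraries, against 1.65 ± 0.316 CPM in controls (SD, n = 6 each; log2 fold change 1.76, edgeR adjusted p = 0.0184). The Runx1 call held in 18 of 22 alternatives and was lost with limma-voom (adjusted p = 0.135), the replicate block (edgeR adjusted p = 0.0682), the summed pairs (edgeR adjusted p = 0.208) and without control replicate 6 (edgeR adjusted p = 0.0509). Runx2 was at 2.6 ± 1.04 CPM in Wnt gain-of-function and 0.635 ± 0.33 CPM in control libraries. The T-box factor Tbx20, a highly expressed member at 319.7 ± 27.3 CPM in Wnt gain-of-function and 347.8 ± 15.5 CPM in control libraries, differed by -0.12 on the log2 scale and did not pass (edgeR adjusted p = 0.934). Tbx20 was named after its values were seen.

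Total reads per library ran from 12127026 to 17184662 in the Wnt gain-of-function and from 10130088 to 17526325 in the control group. Markers of the ventricle were present in every library, with summed cardiomyocyte markers of 18110 to 22790 CPM in Wnt gain-of-function and 19410 to 27630 CPM in control libraries, and 0 of 7 passed. Lef1 and Tcf7 are also genes of T cells, and of 6 T cell markers 5 had fewer than 10 reads in every library, with sums of 0.89 to 1.72 CPM in Wnt gain-of-function and 0.872 to 2.01 CPM in control libraries. For macrophages and leukocytes 6 of 6 markers lay above 0 and 4 had an unadjusted p under 0.05, with sums of 34.5 to 67.5 CPM in Wnt gain-of-function and 31.4 to 47.5 CPM in control libraries, and the 7 endothelial and endocardial markers summed to 722.9 to 785.3 CPM and 663.9 to 734.7 CPM. None of these 13 passed the edgeR test, and their part in the Lef1 and Tcf7 values was not tested.

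Of the other marker lists, 1 of 5 mural cell genes, the pericyte gene Rgs5, was lower (log2 fold change -2.54, edgeR adjusted p = 0.0404), with sums of 179.9 to 266.6 CPM in Wnt gain-of-function and 201.8 to 396.4 CPM in control libraries. Rgs5, part of these sums, stood at 13.5 ± 9.16 CPM in Wnt gain-of-function and 78.6 ± 29.6 CPM in control libraries (SD). The other mural genes ran from -0.17 (Abcc9) to 0.75 (Kcnj8) on the log2 scale and did not pass. Cushion mesenchyme (0 of 6 passed; sums of 962.4 to 1340 CPM in Wnt gain-of-function and 1038 to 1662 CPM in control libraries), epicardium (0 of 5; 205.7 to 280.8 and 197.5 to 294.5 CPM), neural crest and Schwann cells (0 of 1 tested; 7.59 to 12.4 and 9.25 to 12 CPM) and erythroid cells (0 of 5; 9201 to 83020 and 6245 to 66510 CPM) had no call.

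Exons of Lef1 share 1208 bases, 13.8% of its exon length, with the antisense gene Gm43352, which has no row among the deposited counts. The antisense partners of Tcf7l1, Tle1 and Tle2 had at most 18, 2 and 2 reads in any library. The sources used here do not say whether counting used the strand, so reads of Lef1 and of its antisense partner cannot be told apart.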

How the data were processed

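Per the labels' protocols, total RNA was prepared with Trizol and sequenced from Illumina libraries. Read selection, strand and build are not named there. Whole-number read counts per Ensembl gene were deposited by the authors, and the submitters' processing notes name Subread, featureCounts and edgeR without versions. Of 41422 rows, 622 repeated a gene ID with identical counts and were left out. A second table holds the authors' own comparison, with deposited log2 CPM, log2 fold changes, p-values and adjusted p-values. For the members, log2 of (count + 0.5) minus its log2 CPM was constant within a library, with a spread of at most 8.7e-09.

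Groups came from the genotype label. In R 4.3.3, edgeR 4.0.16 kept 14774 genes (filterByExpr, minimum count 10), scaled libraries by TMM, and compared the groups by the robust quasi-likelihood test with group as the only term, Benjamini-Hochberg adjustment over all tested genes and a threshold of 0.05. SE came from the F statistic, and approximate 95% intervals from that SE with 10 residual degrees of freedom. Log2 CPM used a prior count of 2. The fit was tested on simulated data with known changes. Alternatives were other scalings, DESeq2 1.42.0, voom of limma 3.58.1, other filters and a threshold of 0.01, the replicate number as a block, and each library left out. After the data were seen, the library sets as a block, the 3 closest library pairs summed (Wnt gain-of-function 3 with 4 and 1 with 2, control 2 with 3) and the longest transcript as length were added. No pair of libraries agreed within sampling noise, so all were counted, but these 3 pairs had a mean chi-square per gene of 3.07, 3.10 and 3.32, and all other pairs 12.8 to 106. Members of such a pair may not be independent, and n of 6 per group may overstate the replication.

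Members and gene lists were chosen with earlier results of these data known. The text names the members, Axin2, Ctnnb1, the 2 lowest p and any call of each partner list, and the 3 genes most like each TCF/LEF factor.  Promoter windows came from RefSeq and gene models from GENCODE M21.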

Additional observations from a re-analysis of the deposited data

Results flagged for a closer look

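Of 16 groups of 6 values, each member in each group, 1 had a library set apart by a wide gap from its neighbours. Tcf7 was at 5.1 CPM in Wnt gain-of-function replicate 5, while the other 5 libraries of the group lay from 9.86 to 12.2 CPM, and the gap was 0.67 of the whole range of the group, above the 95% critical value of Dixon's ratio. Chance sets apart about 5% of such groups. The same library was the lowest of its group for Lef1, at 30.4 CPM, with a gap of 0.237 of the range. For Tcf7l2 it was the highest, at 235.9 CPM, and it also had the highest summed erythroid markers, at 83020 CPM. The part of these in the Tcf7 value was not tested.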

How the results depend on the processing

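The count of members called was 0 and became 1 (Tcf7) with DESeq2 and without Wnt gain-of-function replicate 5, so leaving out a library gave 0 to 1. Over all genes, 64 were higher and 10 lower. DESeq2 gave 135 and 25, limma-voom 3 and 3, a threshold of 0.01 gave 8 and 2, the library sets as a block 195 and 100, and the summed closest pairs 0 and 1, with 600 genes at an unadjusted p under 0.05. The library sets came from the scatter of these same libraries, so that block takes out scatter by construction. No low-count filter gave 97 higher genes. Leaving out single libraries gave 34 to 149 higher and 4 to 28 lower genes, with the highest of both without Wnt gain-of-function replicate 5. Without Wnt gain-of-function replicates 1, 2 and 4 the higher genes numbered 35, 34 and 37. The lower ones numbered 5 in each of these, 4 without Wnt gain-of-function replicate 3 and 6 without control replicate 3. The cause was not tested.

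Lef1 kept its direction in 22 of 22 alternatives, with a log2 fold change of 1.18 to 1.58. It passed in 0 (edgeR adjusted p from 0.0663, with the library sets as a block). Tcf7 also kept its direction in 22 of 22, at 0.72 to 1.00, and passed in 2. The lowest values of both came with the closest pairs summed. There Lef1 was at 1.18 and Tcf7 at 0.72 (edgeR adjusted p = 0.709 for Tcf7), and neither passed. Tle1, Tle2 and Tle3 kept their direction throughout. The replicate number as a block gave 47 higher and 8 lower genes, 1.45 for Lef1 (adjusted p = 0.58) and 0.87 for Tcf7 (0.207). It changed no member's call but ended those of Axin2 (0.125) and Runx1 (0.0682). Deviations from the group means of libraries with the same number had correlations of -0.377 to 0.463. No label says whether the numbers pair the samples. Signs turned only near 0. Tcf7l1 was at -0.000473 with upper-quartile scaling, -0.00683 with limma-voom and -0.0024 with the replicate block, and -0.042 to 0.0775 with a library left out. Tcf7l2 was at 0.0605 with the pairs summed and -0.0634 to 0.034 with a library left out, and Tle4 at -0.0126 and -0.0381 to 0.129. Aes was at -0.00176 with limma-voom, -0.000878 with the replicate block and -0.00212 when the library sets were a block, and at -0.0565 to 0.072 with a library left out. Between Axin2 and Tle2 in controls, r was -0.126 to 0.663 with a library left out. Of the other calls, limma-voom and the summed pairs each kept 0 of Notum, Rnf43, Axin2, Runx1 and Runx2. The lowest read counts of a member in a library were 29 for Tcf7 and 42 for Tle2.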
